A study of Mus musculus with 19 samples.

Results

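Expression of 10 genes of the basement membrane was followed in mouse embryonic stem cells with and without Trim71 and Lin28a. The genes were chosen by name: the laminin chains Lama1, Lama5, Lamb1, Lamb2 and Lamc1, the nidogens Nid1 and Nid2, perlecan (Hspg2), Sparc and fibronectin (Fn1). They are 10 of the 21685 genes in the deposited table, and all 10 passed the filter on low values that left 14988 genes for testing. TRIM71 joins ubiquitin ligase and RNA-binding activity in one protein, and LIN28A holds back the processing of let-7 microRNA precursors. The study addressed how TRIM71 acts on let-7.

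All cells were male C57BL/6 embryonic stem cells grown in serum with leukaemia inhibitory factor and enriched on magnetic beads for the surface antigen SSEA-1 before RNA was taken. Group names give Trim71 before Lin28a. WT-WT cells carried floxed, intact alleles of both genes (Trimfl/fl, Lin28afl/fl) and had 4 libraries. KO-WT cells lacked Trim71 and kept floxed Lin28a (Trim-/-, Lin28afl/fl), WT-KO cells kept floxed Trim71 and lacked Lin28a (Trimfl/fl, Lin28a-/-), and KO-KO cells lacked both (Trim-/-, Lin28a-/-). KO-WT had 4 libraries, and WT-KO and KO-KO had 5 each. Trim71 was deleted with 500 nM 4-OHT (4-hydroxytamoxifen, which activates an inducible recombinase) for 2 days, followed by at least 7 further days of culture. Which recombinase was used, how Lin28a was deleted and whether the Trim71-intact cells saw the drug were not given in the sources used here. Lin28a-intact libraries came from clones 1 and E3 and Lin28a-null libraries from clones 1-4 and C1, so Lin28a genotype and clone cannot be told apart. Clones 1 and 1-4 were harvested on days 1 and 5, and clones E3 and C1 on days 2, 3 and 4. No label says that libraries of 1 clone came from separate cultures, so p-values measure the spread between these libraries, which may be partly technical.

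The values are deposited normalised expression on a log2 scale, and library depth is unknown. KO-WT replicate 5 was left out because its values were an average of replicates 1 to 4, with a largest gap of 1.5e-08. Differences between harvest days had already been removed from the values (largest day term of any gene 1.7e-08), so day was kept as a term in every fit. Mean Trim71 was 10.21 and 10.65 in the Trim71-intact groups against 8.89 and 9.28 in the Trim71-null groups, and mean Lin28a was 10.13 and 9.84 against 8.47 and 8.28, as labelled. Of 8 embryonic stem cell markers, 7 (Pou5f1, Sox2, Nanog, Zfp42, Esrrb, Klf4 and Tdgf1) passed the filter in these cells. Fut4 did not.

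Basement membranes are thin sheets of matrix under epithelia. A laminin is a trimer of an alpha, a beta and a gamma chain; the trimers polymerise into a network on the cell surface, and nidogens and perlecan link that network to collagen IV. Embryonic stem cells make laminin themselves, and primitive and parietal endoderm, which lay down the first basement membranes of the embryo, make large amounts of laminin-111 (the Lama1, Lamb1 and Lamc1 chains), nidogen, collagen IV and SPARC. SPARC is a collagen-binding glycoprotein, and fibronectin is a fibril-forming matrix protein read by integrins.

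The promoters of the gene that changed most (Sparc), the laminin chain that changed most (Lamb1) and a nidogen that moved the other way (Nid1) are shown because these genes changed with the Lin28a state. Each window runs from 250 bases before to 50 bases after the RefSeq start site in GRCm38.p6, is written 5′ to 3′ on the gene's own strand, and has any match to the motifs searched in capitals. The windows are chr11:55420031-55420330 (minus strand) for Sparc, chr12:31265043-31265342 (plus strand) for Lamb1 and chr13:13437352-13437651 (plus strand) for Nid1.
Sparc: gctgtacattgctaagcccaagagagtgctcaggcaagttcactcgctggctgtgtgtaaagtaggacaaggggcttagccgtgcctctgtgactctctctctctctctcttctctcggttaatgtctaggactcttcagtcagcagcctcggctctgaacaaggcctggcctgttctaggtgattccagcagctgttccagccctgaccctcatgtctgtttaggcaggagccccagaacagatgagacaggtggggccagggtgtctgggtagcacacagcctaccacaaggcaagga
Lamb1: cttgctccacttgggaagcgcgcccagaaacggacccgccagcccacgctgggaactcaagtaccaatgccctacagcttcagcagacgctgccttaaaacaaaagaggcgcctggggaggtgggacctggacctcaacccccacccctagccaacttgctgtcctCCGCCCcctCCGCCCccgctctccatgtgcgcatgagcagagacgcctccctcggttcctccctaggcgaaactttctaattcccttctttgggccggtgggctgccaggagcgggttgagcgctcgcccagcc
Nid1: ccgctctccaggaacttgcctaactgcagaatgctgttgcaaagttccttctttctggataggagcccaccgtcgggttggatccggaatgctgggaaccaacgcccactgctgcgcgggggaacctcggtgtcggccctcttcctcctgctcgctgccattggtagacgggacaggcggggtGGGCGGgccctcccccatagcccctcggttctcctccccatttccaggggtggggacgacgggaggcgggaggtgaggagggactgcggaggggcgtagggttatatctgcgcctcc
Windows were matched for 6 of the 10 genes (Lama5, Lamb1, Lamb2, Nid1, Hspg2 and Sparc); Lama1, Lamc1, Nid2 and Fn1 had no entry. Both strands were searched for 5 motifs. The GC box was searched as GGGCGG and stood in 4 of the 6 windows, with 5 matches in Hspg2, 4 in Lama5, 2 in Lamb1 and 1 in Nid1, against 64.9% of the windows of 10497 tested genes and 35.9% of those of all 27025 genes. The TATA box, searched as TATAAA, had no match in the 6 windows and stood in 6.74% of the tested genes' windows. The GATA site, searched as GATAAG, had none either and stood in 4.61% of those windows. The AP-1 site, searched as TGACTCA, also had none, against 3.27%. The E-box was searched as CACGTG and again had none, against 10.3%; no motif's letters lie within another's. The Sparc window thus held none of the 5 motifs, and the letters say nothing of which factors bind there.

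To rank the members by level, log2 of the length in kilobases of the longest annotated transcript was subtracted. On this per-length log2 scale Sparc was the most abundant member in WT-WT, with a mean of 11.39. Fn1 followed at 9.12, Lamc1 at 8.92, Lamb1 at 8.70 and Nid2 at 8.19. Hspg2 (7.80) and Lama5 (7.74) overlapped across libraries, as did Nid1 (7.23) and Lama1 (7.06), and Lamb2 was lowest at 5.59. The highest Lamc1 library met the lowest Fn1 library, so those neighbours touched. The chains of laminin-111 were therefore all expressed, with the alpha chain transcript the lowest of the 3 per length, and the beta chain transcript in these cells was mainly Lamb1. Sparc kept the highest per-length mean in all 4 genotypes, at 10.30 in WT-KO and 10.33 in KO-KO.

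**Figure D1:**
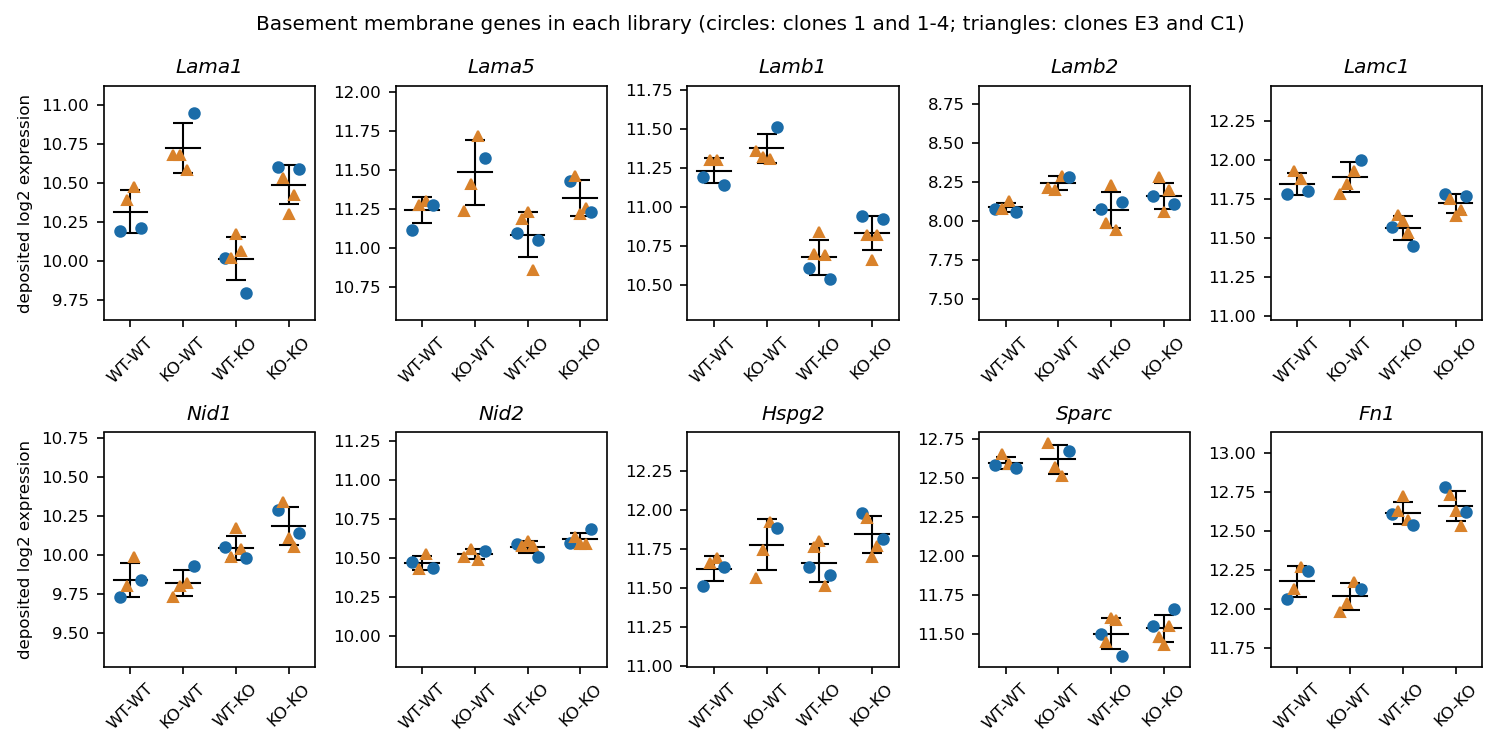
Deposited log2 expression of the 10 genes (vertical axes, each spanning at least 1.5 log2 units) in each library of the 4 genotypes (horizontal axes), with bars for mean and SD; circles are clones 1 and 1-4, triangles clones E3 and C1. Sparc and Lamb1 sit lower and Fn1 higher in both Lin28a-null genotypes, and Lama1 is higher in the Trim71-null genotype of each Lin28a state.

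Lin28a loss with Trim71 intact was compared in WT-KO against WT-WT. Sparc fell to 0.468 of its level, Lamb1 to 0.679, Lamc1 to 0.821 and Lama1 to 0.809, while Fn1 rose 1.36-fold, Nid1 1.15-fold and Nid2 1.07-fold. Lama5, Lamb2 and Hspg2 did not pass the test, at log2 differences of -0.16 (95% interval -0.36 to 0.04), -0.01 (-0.15 to 0.12) and 0.03 (-0.15 to 0.21). With limma over all tested genes and a Benjamini-Hochberg adjusted p below 0.05 as the call, 7 of 10 members were called, 3 higher and 4 lower. The background in this comparison was high: 42.4% of the 14988 tested genes were called, 20.3% higher and 22.0% lower, and the median log2 difference was -0.09 over the members against -0.01 over all tested genes. In bulk RNA, fewer cells of one type and less RNA per cell cannot be told apart.

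Sparc stood at 12.58, 12.65, 12.59 and 12.56 in the WT-WT libraries and at 11.50, 11.45, 11.60, 11.59 and 11.36 in WT-KO. Every WT-KO library lay about a log2 unit below every WT-WT library. The log2 difference was -1.09 ± 0.0623 (SE), with a limma adjusted p of 1.85e-09, and it was negative in all 4 pairs harvested on the same day. In Trim71-null cells Sparc stood at 12.72, 12.57, 12.51 and 12.67 in KO-WT and at 11.55, 11.48, 11.43, 11.55 and 11.66 in KO-KO. The second contrast repeated the separation without overlap, with a log2 difference of -1.08 ± 0.0623 and a limma adjusted p of 2.59e-09.

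Fibronectin moved in the opposite direction. Fn1 stood at 12.06, 12.13, 12.27 and 12.24 in WT-WT and at 12.61, 12.63, 12.72, 12.57 and 12.54 in WT-KO. All WT-KO libraries were above all WT-WT libraries, and the log2 difference was 0.44 ± 0.0635 with a limma adjusted p of 4.88e-05. Without Trim71 it stood at 11.98, 12.04, 12.17 and 12.13 in KO-WT and at 12.78, 12.73, 12.63, 12.53 and 12.62 in KO-KO, a log2 difference of 0.58 ± 0.0635 (limma adjusted p 3.04e-06). Within libraries, the Fn1 value minus the Sparc value averaged -0.42 in WT-WT and -0.54 in KO-WT but 1.11 in WT-KO and 1.12 in KO-KO. These averages were more than a log2 unit apart between the Lin28a states, a difference that was not tested itself. They were not corrected for transcript length, so their sign does not rank the genes. Per length, mean Sparc stayed above mean Fn1, at 10.30 against 9.56 in WT-KO and 10.33 against 9.60 in KO-KO.

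The beta and gamma chains of laminin-111 fell in both Lin28a contrasts. Lamb1 stood at 11.19, 11.30, 11.30 and 11.14 in WT-WT and at 10.61, 10.70, 10.84, 10.69 and 10.54 in WT-KO. The groups did not overlap, and the log2 difference was -0.56 ± 0.0712 with a limma adjusted p of 1.37e-05. In KO-WT Lamb1 stood at 11.36, 11.32, 11.31 and 11.51 and in KO-KO at 10.94, 10.82, 10.66, 10.82 and 10.92, again without overlap, with a log2 difference of -0.54 (limma adjusted p 1.83e-05). Lamb2, the alternative beta chain, differed by -0.01 and -0.08 with limma adjusted p of 0.893 and 0.323. Within libraries, the Lamb1 value minus the Lamb2 value averaged 3.15 in WT-WT and 3.13 in KO-WT against 2.60 in WT-KO and 2.67 in KO-KO, a difference that was not tested itself.

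Lamc1, the gamma chain, stood at 11.78, 11.93, 11.88 and 11.80 in WT-WT and at 11.57, 11.65, 11.61, 11.53 and 11.45 in WT-KO. These groups did not overlap either, with a log2 difference of -0.29 ± 0.0568 and a limma adjusted p of 0.000811. In Trim71-null cells the difference was -0.17 ± 0.0568 (limma adjusted p 0.0261), and KO-WT (11.78, 11.85, 11.93 and 12.00) overlapped KO-KO (11.78, 11.75, 11.64, 11.68 and 11.77) at its lowest library. That second call was lost when KO-WT replicate 3 (adjusted p 0.0752), KO-WT replicate 4 (0.131), KO-KO replicate 3 (0.0867) or KO-KO replicate 4 (0.061) was left out of the limma fit, and in clones E3 and C1 alone (0.0967).

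Lama1, the alpha chain of laminin-111, stood at 10.19, 10.39, 10.47 and 10.21 in WT-WT and at 10.02, 10.02, 10.17, 10.06 and 9.79 in WT-KO. The highest WT-KO library lay just below the lowest WT-WT library, and the log2 difference of -0.31 ± 0.0938 had a limma adjusted p of 0.0152. The call was lost without WT-WT replicate 2 (0.0564), WT-WT replicate 3 (0.073) or WT-KO replicate 5 (0.0616). In Trim71-null cells the difference was -0.23 with a limma adjusted p of 0.0548, not called, although all 4 same-day pairs were lower. It was called lower there under 13 of 31 alternatives, among them a fit of only the genotypes compared (-0.26, limma adjusted p 0.00169) and removal of the GC and length trend described next (-0.35, 0.00179). Lama5, the other alpha chain, had log2 differences of -0.16 and -0.17 (limma adjusted p 0.19 and 0.172). It was called lower in both contrasts once the trend of differences with transcript GC content and length was removed, a correction chosen after the data were seen, with limma adjusted p of 0.0138 and 0.00441.

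The linkers did not fall with the laminin chains. Nid1 stood at 9.73, 9.80, 9.99 and 9.84 in WT-WT and at 10.05, 9.99, 10.17, 10.04 and 9.98 in WT-KO, and the groups overlapped only at their ends. The log2 difference was 0.21 ± 0.071 with a limma adjusted p of 0.027, and this call was lost under 7 of 31 alternatives. In Trim71-null cells the groups did not overlap: 9.73, 9.80, 9.82 and 9.93 in KO-WT against 10.29, 10.34, 10.11, 10.05 and 10.14 in KO-KO, a log2 difference of 0.36 ± 0.071 (limma adjusted p 0.000679) whose call was lost in clones 1 and 1-4 alone (0.26, 0.0526). Nid2 rose by 0.10 ± 0.0399 (limma adjusted p 0.0491), which lost its call under 22 of 31 alternatives, and differed by 0.09 in Trim71-null cells (adjusted p 0.0686). Hspg2, the heparan sulfate proteoglycan perlecan, differed by 0.03 and 0.07 with limma adjusted p of 0.788 and 0.537.

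In Trim71-null cells 5 of the 10 members were called between KO-KO and KO-WT, 2 higher and 3 lower (Fn1 and Nid1; Sparc, Lamb1 and Lamc1), against 42.8% of all tested genes, 20.8% higher and 22.0% lower. The members' median log2 difference was -0.12. Sparc, Fn1 and Lamb1 kept their calls in all 31 alternatives of both contrasts.

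**Figure D2:**
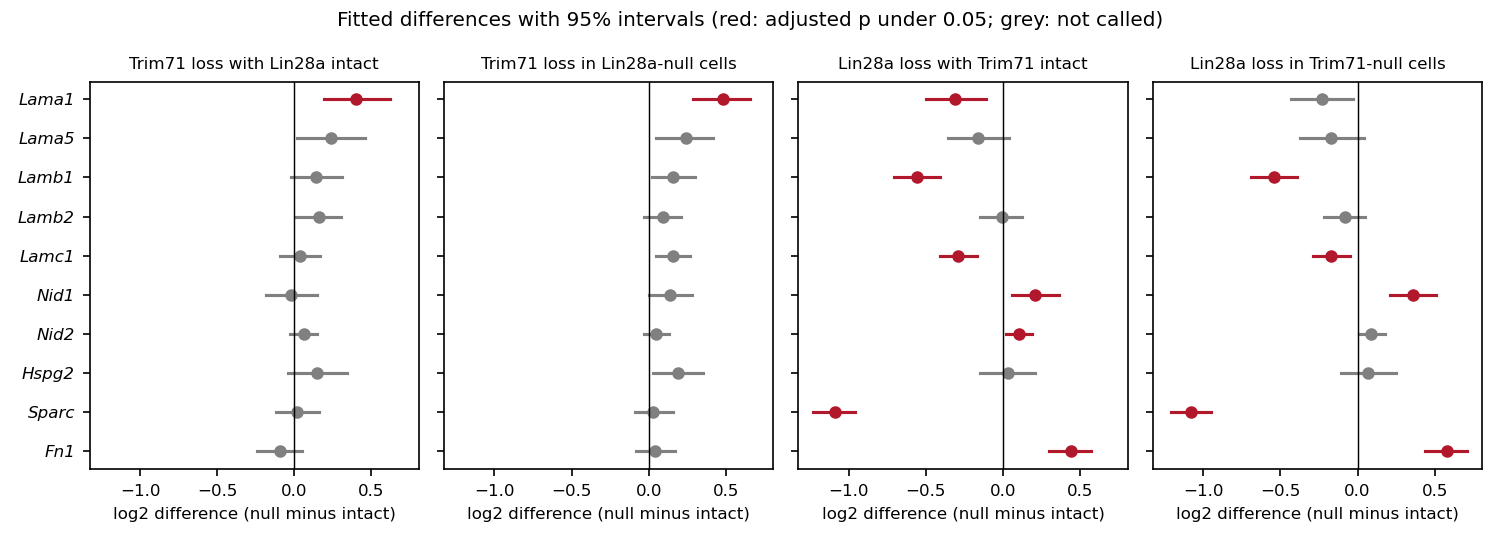
Fitted log2 differences of the 10 genes (null minus intact, horizontal axis) with 95% intervals, for Trim71 loss in each Lin28a state and for Lin28a loss in each Trim71 state; red marks a limma adjusted p under 0.05. The Lin28a panels show Sparc at -1.09 and -1.08, Lamb1 at -0.56 and -0.54 and Fn1 at 0.44 and 0.58, and Lama1 is the only red gene in the Trim71 panels.

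Markers of cell types that lay down basement membrane moved with the Lin28a state. In WT-KO against WT-WT, 22.0% of all tested genes were called lower and 20.3% higher. All 7 tested markers of primitive endoderm (of 10; Sox17 and Foxa2 were among those below the filter) were lower in WT-KO than in WT-WT, with a median log2 difference of -1.52. Their summed level, in units of 2 to the power of the deposited value, ran from 537 to 746 in WT-WT and 623 to 974 in KO-WT, against 112 to 147 in WT-KO and 132 to 189 in KO-KO. Of the 5 tested parietal endoderm markers 4 were called lower (median -0.88), and their sums were 152 to 194, 147 to 214, 60.9 to 76.6 and 64.5 to 81.6 in the same order of groups. The trophectoderm list had 6 of 7 tested markers lower (median -2.88; Cdx2, Elf5 and Tfap2a below the filter), with sums of 3731 to 5272 and 3799 to 4859 against 314 to 394 and 332 to 492. Eomes was the tested marker not called (0.13, limma adjusted p 0.241). The WT-WT sums were mostly the keratins Krt8 and Krt18 (means 10.96 and 10.80, against 8.18 for Krt7), so the fall of the sums mainly follows these keratins.

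Further cell type lists were examined as well. Of 6 tested fibroblast markers (12 listed) 3 were called lower and 1 higher, with sums of 229 to 289 in WT-WT, 196 to 232 in KO-WT, 125 to 144 in WT-KO and 142 to 160 in KO-KO. Neither of the 2 tested visceral endoderm markers (6 listed) was called with Trim71 intact. Hnf4a and Apoa1 were below the filter, and Afp and Ttr had no deposited values. The list's sums were 4621 to 5104 in WT-WT and 4761 to 5442 in WT-KO. They were nearly all Apoe (mean 12.24 in WT-WT, against 3.41 for Rbp4), so they say little of visceral endoderm. Embryonic stem cell markers were higher for 5 of 7 tested genes, with sums of 25092 to 25718 in WT-WT and 31927 to 34442 in WT-KO. These counts stand against 20.3% of all tested genes called higher and 22.0% called lower. The part of these marker changes in the falls of Sparc and the laminin chains was not tested.

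Trim71 loss was compared in KO-WT against WT-WT and in KO-KO against WT-KO. Lama1 rose 1.32-fold with Lin28a intact and 1.39-fold without Lin28a, and no other member passed the test in either contrast. With Lin28a intact 1 of 10 members was called (higher), against 11.2% of all tested genes, 4.74% higher and 6.43% lower; in Lin28a-null cells 1 of 10 was called (higher), against 8.38%, 4.26% higher and 4.12% lower. The counts are thus close to the background shares.

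In KO-WT Lama1 stood at 10.68, 10.68, 10.58 and 10.95, above all WT-WT libraries, whose highest value was 10.47. The log2 difference was 0.40 ± 0.101 with a limma adjusted p of 0.0223. In KO-KO Lama1 stood at 10.60, 10.53, 10.30, 10.42 and 10.59, above all WT-KO libraries, whose highest value was 10.17, and the log2 difference was 0.48 ± 0.0868 with a limma adjusted p of 0.00294. All 3 same-day pairs with Lin28a intact and all 5 without Lin28a were higher in the Trim71-null cells. The pair differences were 0.29, 0.11 and 0.74 on days 3, 4 and 5 with Lin28a intact, and 0.58, 0.51, 0.13, 0.37 and 0.80 on days 1 to 5 without it, so the day 5 pair of clones 1 and 1-4 was the largest in both Lin28a states.

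The call with Lin28a intact rested on few libraries. It was lost without WT-WT replicate 4 (0.35, limma adjusted p 0.0832) or KO-WT replicate 4 (0.29, 0.0698), which are the day 5 pair. It was also lost in clones E3 and C1 alone (0.20, 0.256), on days 3, 4 and 5 alone (0.38, 0.0948) and in a fit of only the compared genotypes (0.38, 0.158). In Lin28a-null cells the call held without any single library and was lost in clones E3 and C1 alone (0.34, limma adjusted p 0.0585) and on days 3, 4 and 5 alone (0.43, 0.113). Log2 differences followed transcript GC content with Lin28a intact (Spearman rho 0.502 over tested genes, which are not independent) but little without it (0.0148); after removal of the GC and length trend, Lama1 differed by 0.46 (limma adjusted p 0.00475) and 0.43 (0.00109).

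Beside the rise of Lama1, the primitive endoderm markers had a median log2 difference of 0.21 with Lin28a intact and 0.27 without. Of 7 tested markers 0 and 1 (Sox7, 0.38 ± 0.0932) were called by limma, against 11.2% and 8.38% of all tested genes. The part of these markers in the rise was not tested.

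The other 9 members did not pass the test after Trim71 loss. Lama5 differed by 0.24 in both Lin28a states (95% intervals 0.02 to 0.46 and 0.05 to 0.42; limma adjusted p 0.133 and 0.119), and it stood at 11.24, 11.41, 11.72 and 11.58 in KO-WT against 11.12, 11.28, 11.30 and 11.28 in WT-WT. Lamb1 differed by 0.14 and 0.16 (adjusted p 0.232 and 0.156), Lamc1 by 0.04 and 0.16 (0.685 and 0.0704), Lamb2 by 0.16 and 0.09 (0.137 and 0.392) and Hspg2 by 0.15 and 0.19 (0.276 and 0.149), all from limma. KO-WT lay above WT-WT without overlap for Lamb1 and Lamb2 as well, but both missed the adjusted threshold. For Lamb1 the lowest KO-WT library stood at 11.31 and the highest WT-WT library at 11.30. Its same-day pairs on days 3 and 4 differed by 0.02 and 0.01. The share of all tested genes without overlap was not computed. Some of the 9 members were called higher under a few of the 31 alternatives. With Lin28a intact these were Lama5 under 2 and Lamb2 under 1. Lamb1 differed by 0.37 there in clones 1 and 1-4 alone, which rests on 1 KO-WT library. In Lin28a-null cells they were Lama5 under 3, Lamb1 under 2, Lamc1 under 4 and Hspg2 under 2. Nid1, Nid2, Sparc and Fn1 had log2 differences between -0.09 and 0.14. The 95% interval for Sparc ran from -0.12 to 0.16 with Lin28a intact and from -0.09 to 0.16 without it, both far from the -1.09 of Lin28a loss.

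Loss of both genes was compared in KO-KO against WT-WT. Here 6 of 10 members were called, against 45.6% of all tested genes (21.0% higher, 24.6% lower). Sparc (-1.06, limma adjusted p 2.56e-09) and Lamb1 (-0.40, 0.000308) were lower; Fn1 (0.48, 1.71e-05), Nid1 (0.35, 0.00094), Nid2 (0.15, 0.00562) and Hspg2 (0.22, 0.0403) were higher. The Lama1 values of 10.30 to 10.60 in KO-KO overlapped those of WT-WT, and the log2 difference was 0.17 (95% interval -0.03 to 0.37, limma adjusted p 0.149). In clones 1 and 1-4 alone Lama1 was called higher (0.39, limma adjusted p 0.00159). The same-day pairs of clones E3 and C1 differed by -0.09 and -0.05. In clones E3 and C1 alone the calls of Nid1 (0.27, limma adjusted p 0.095), Nid2 (0.12, 0.229) and Hspg2 (0.13, 0.495) were lost. Removal of the GC and length trend took the calls of Nid2 (0.09, limma adjusted p 0.0553) and Hspg2 (0.13, 0.0622). Lamc1 was not called in the main fit (-0.12, limma adjusted p 0.0849) but was called lower after this removal (-0.18, 0.00416). Hspg2 stood at 11.98, 11.95, 11.70, 11.77 and 11.81 in KO-KO against 11.51, 11.66, 11.69 and 11.63 in WT-WT; its call was lost under 11 of 31 alternatives, among them without WT-WT replicates 1, 2 or 4 or KO-KO replicates 1, 2 or 5 (adjusted p 0.0571 to 0.162).

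Whether the effect of Trim71 loss depended on Lin28a was tested as an interaction. In limma 0 of 10 members were called and 0 had an unadjusted p under 0.05; over all genes 3 were called (0.0200%) and 2256 had an unadjusted p under 0.05. The members' interaction adjusted p ran from 0.464 (Nid1, 0.16 ± 0.101) to 0.985. The interval for Lama1 ran from -0.21 to 0.35, so a difference between its rises of 0.40 and 0.48 was not detectable with these libraries.

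The 2 pairs of clones were compared as the only check on clone. For Lin28a loss with Trim71 intact, clones 1 and 1-4 gave log2 differences of -1.14 for Sparc, -0.59 for Lamb1, -0.28 for Lamc1 and 0.42 for Fn1; clones E3 and C1 gave -1.07, -0.57, -0.31 and 0.44. No member was called for a difference between the pairs in limma, none had an unadjusted p under 0.05, and 0% of all tested genes were called. Only 26 genes had an unadjusted p under 0.05, far below the share of 0.05 that chance gives. The test was therefore conservative, and the lack of calls does not show that the pairs agree. For Trim71 loss in Lin28a-null cells, Lama1 differed by 0.69 in clone 1-4 and 0.34 in clone C1, and Lamb1 differed by 0.36 and 0.03. The differences between the clones were 0.35 ± 0.114 for Lama1 and 0.33 ± 0.0941 for Lamb1, with unadjusted values of 0.00769 and 0.00336 and an adjusted p of 0.9996 for both in limma. Again no member and 0% of all genes were called, with 2 members and 392 genes at an unadjusted p under 0.05. That gene count too was below the share of 0.05 that chance gives. In clones 1 and 1-4 alone, Lamb1 was called higher after Trim71 loss in Lin28a-null cells, by 0.36 (limma adjusted p 0.00587). With Lin28a intact it differed there by 0.37, a value that rests on 1 KO-WT library. Clones E3 and C1 alone gave 0.02 with Lin28a intact.

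Further genes of the matrix were taken from lists of textbook families. Among the other laminin chains Lama3, an alpha chain, differed between WT-KO and WT-WT by -0.24 ± 0.0882 (limma adjusted p 0.0404). After Trim71 loss Lama3 fell by 0.32 with Lin28a intact (limma adjusted p 0.0445) and Lama4, another alpha chain, rose by 0.30 in Lin28a-null cells (0.0341), both named after their values were seen. In other basement membrane proteins 4 of 12 tested genes were higher and 6 lower after Lin28a loss with Trim71 intact. Over all tested genes 20.3% were called higher and 22.0% lower. The list was led by Tinagl1 (-2.98), Col4a2 (-2.85) and Col4a1 (-2.69), the last 2 being the chains of the main collagen IV.

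Genes that fold, crosslink or cut matrix were mostly lower after Lin28a loss. In the folding and crosslinking list 11 of 12 tested genes were lower and none higher (median -0.41), with Loxl2, a lysyl oxidase, at -2.06, Serpinh1, the collagen chaperone, at -1.28, and P4ha2, a collagen prolyl hydroxylase, at -1.18. Of 16 tested proteases and inhibitors 11 were lower and 3 higher (median -0.70), among them Bmp1, a procollagen proteinase, at -2.16, and Plau, urokinase, at -1.93. In the list of the Sparc family and other matricellular proteins 3 of 5 tested genes were lower and 1 higher (median -1.38). These were Thbs1 at -2.76, Cyr61 at -1.51, Ctgf at -1.38 and Spp1 at 0.47. Of the relatives of Sparc, Spock2 was tested and not called (-0.13, limma adjusted p 0.199). Sparcl1 and Spock1 were below the filter, and Spock3 had no deposited values. Each median can be read against -0.01 over all tested genes, and each count against 22.0% called lower and 20.3% called higher. The marker sums given above moved with these lists too, and Plat is on both the protease and the parietal endoderm list.

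The receptors bind these matrix proteins and pass the contact on to partners inside the cell. Of 18 tested laminin and fibronectin receptors 9 were lower and 2 higher after Lin28a loss with Trim71 intact (median -0.18). Over all tested genes 22.0% were called lower and 20.3% higher in this comparison. The largest called receptors were Itga1 (-0.89), Itgb1 (-0.84), the shared beta subunit of many laminin and fibronectin receptors, and Sdc4 (-0.77), a syndecan. Of 11 integrin adhesion partners 4 were lower and none higher, including Parva (-1.89), Zyx (-0.80) and Ilk (-0.46). The list median was -0.09, and the share called did not exceed the 42.4% of all tested genes called. After Trim71 loss with Lin28a intact 1 of 18 receptors was called, against 11.2% of all tested genes. It was Bcam, which binds laminin alpha-5, at 0.48 ± 0.0446 (limma adjusted p 2.39e-05). In Lin28a-null cells 4 receptors were called, all higher, against 8.38% of all tested genes. These were Bcam (0.29), Itga1 (0.44), Itga3 (0.38) and Itgb4 (0.39), named after their values were seen.

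**Figure D3:**
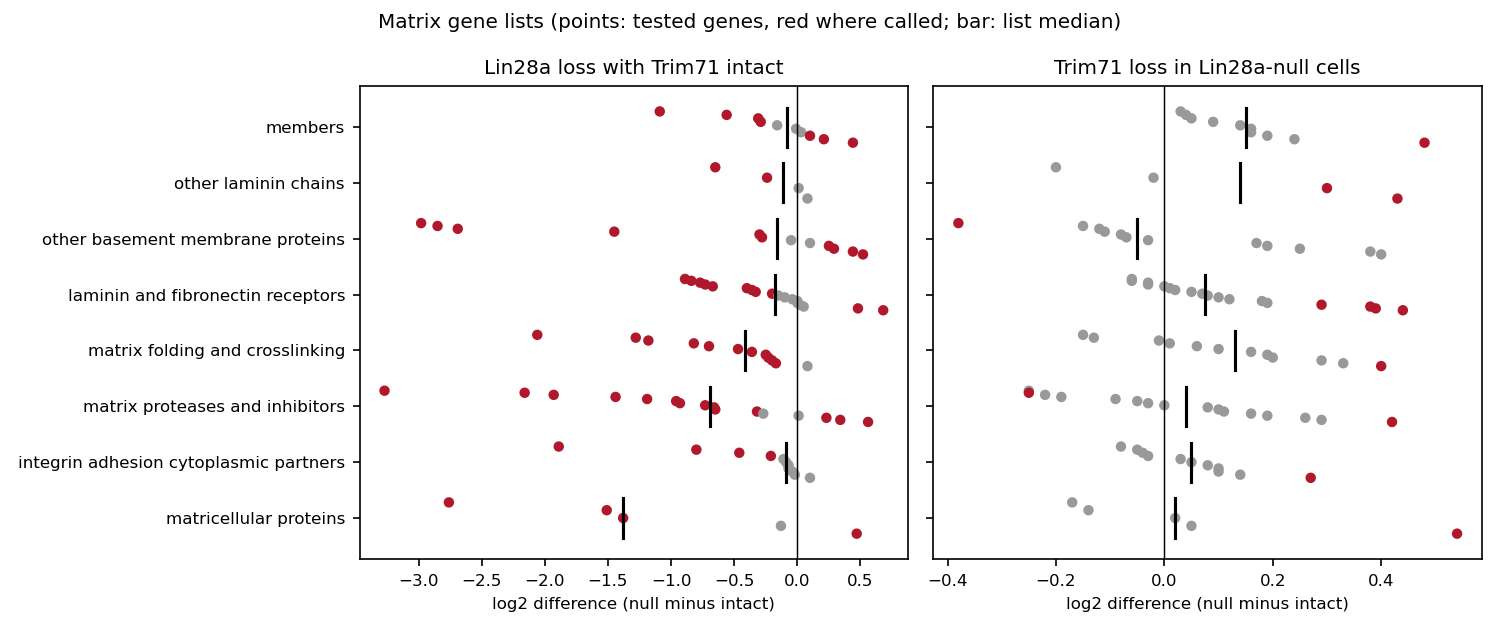
Log2 differences (null minus intact, horizontal axes on different scales) of the tested genes in the members and in 7 matrix lists, for Lin28a loss with Trim71 intact (left) and Trim71 loss in Lin28a-null cells (right); each point is a gene, red where called, and bars are list medians. On the left the protease and matricellular medians lie at -0.70 and -1.38 and the member median at -0.09; on the right all medians lie between -0.05 and 0.15.

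The 10 genes did not vary as a block. Over the 18 libraries the 45 pairs of members had Pearson r between -0.94 and 0.95, with a median of 0.40; these describe libraries that share genotype and processing. Sparc and Lamb1 (0.95), Lamb1 and Lamc1 (0.92) and Nid1 and Fn1 (0.92) varied most alike, and Sparc and Fn1 (-0.94) most in opposition. After the genotype and day means were removed, the median r was 0.52, 41 of 45 pairs were above 0, and the pattern changed: Lama5 and Hspg2 (0.95), Lama1 and Lamb1 (0.93) and Nid1 and Fn1 (0.86) were closest, while Sparc and Fn1 stood at -0.09. The opposition of Sparc and Fn1 thus lay between the genotypes. Within genotypes most pairs of members moved together from library to library, but no share for other tested genes was computed. Lama5 and Hspg2 have the longest and most GC-rich transcripts of the members (59.9% and 60.9% GC). These values were not corrected for GC content or length, and the part of such trends was not tested.

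**Figure D4:**
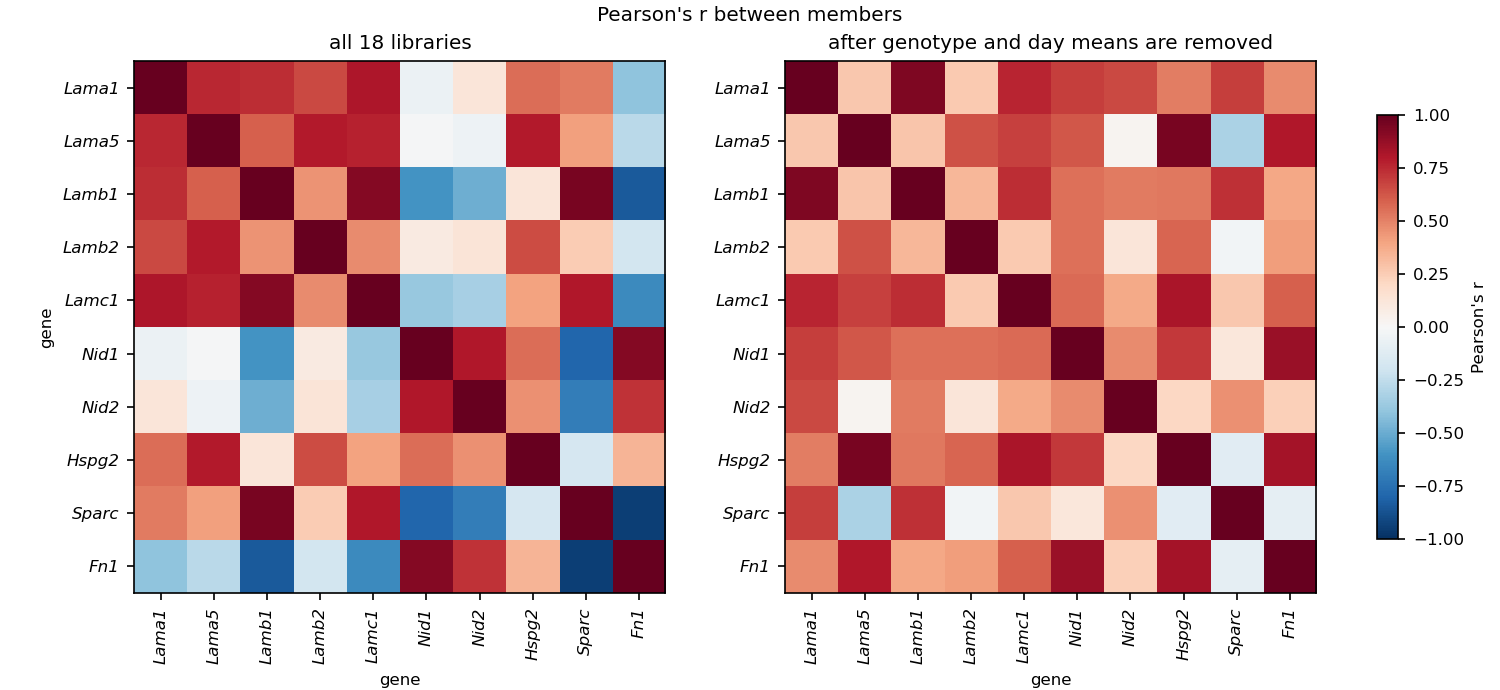
Pearson's r between each pair of the 10 genes over 18 libraries (left) and after genotype and day means were removed (right); colours run from -1 (blue) to 1 (red). The blue cells of Sparc and Lamb1 with Fn1 (-0.94 and -0.84) are gone on the right, at -0.09 and 0.39.

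The genes of most similar pattern were those with the highest Pearson r over the 18 libraries among all tested genes outside the members. For Sparc they were Podxl (0.997), Tpm4 (0.996) and Nxf7 (0.995). For Lamb1 they were Gata6 (0.99), Ctsh (0.99) and P4ha2 (0.98), the first a transcription factor that marks primitive endoderm and the last a hydroxylase of the folding list above. Lamc1 was most like Mpc1 (0.96), Lif (0.95) and Pon2 (0.95), and Lama1 most like Pdcd6ip (0.96), C77080 (0.94) and Tmeff1 (0.94). Nid1 was most like Tfcp2l1 (0.98), a transcription factor of naive embryonic stem cells, and Fn1 like Ep400, Zfp236 and Neo1 (0.99 each). These r values include the differences between genotypes.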

How the data were processed

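RNA-seq values of 18 libraries were used. Per the submitters' processing notes, CASAVA 1.8, STAR and DESeq2 were used, with no role stated; the genome build, annotation and counting were not given in the sources used here. The authors deposited 1 table whose values, by their range, are normalised expression on a log2 scale rather than counts. A gene was tested where 4 or more libraries reached log2 of 10. The model was fitted in limma 3.58.1 (R 4.3.3; moderated variances with a trend) with genotype means and harvest day as terms, leaving 10 residual degrees of freedom. P-values were two-sided and Benjamini-Hochberg adjusted over all 14988 genes, and an adjusted p under 0.05 is a call. The labels pair libraries by harvest day; a check by correlation is void because day effects had been removed. The procedure was tested on simulated data, where 99.5% of 200 genes changed by 1 log2 unit came out called and 5.69% of calls were false, against 31.3% false without the day term. Only these 200 genes changed there, in WT-KO alone, with noise independent between genes. The rates need not hold for smaller differences such as those of Lama1, Lamc1, Nid1 and Nid2.

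Transcript lengths and GC content came from GENCODE vM21. The members and lists were chosen with earlier results of these data known. All members are named; from each list the rule named at most the 3 called genes with the largest difference after Lin28a loss with Trim71 intact. Some genes of these lists are not reported here. Alternatives covered the day term, filter, scaling, variance prior, clones, days, each library left out and removal of GC and length trends.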

Additional observations from a re-analysis of the deposited data

Results flagged for a closer look

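Of 40 groups of libraries examined (10 genes in 4 genotypes), 1 had a library far from the rest: Lama5 in WT-WT replicate 1, harvested on day 1, stood at 11.12, while the other WT-WT libraries stood at 11.28, 11.30 and 11.28. Chance flags about 1 in 20 groups.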

How the results depend on the processing

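Library depth is unknown, so precision rests on the spread between libraries, and the deposited log2 scale sets the fold sizes. No called difference reversed. Of 2270 values of single members under alternatives, 2173 kept their side of the threshold, 59 lost a call and 38 gained one; members not called in either fit count as kept whatever their sign. Without the replicate block (no day term), 3 members were called after Trim71 loss with Lin28a intact (1 with it) and 3 in Lin28a-null cells (1 with it). With Lin28a intact, 0 were called in a fit of only the genotypes compared, 0 in clones E3 and C1 and 0 on the days with all 4 genotypes. Leaving out 1 library gave 0 to 2. Clones 1 and 1-4 hold 1 KO-WT library, so no count is given for them. In Lin28a-null cells the counts were 2, 0 and 0 for the same settings and 4 in clones 1 and 1-4. They were 3 with the GC and length trend removed, and 1 to 2 with 1 library left out. After Lin28a loss with Trim71 intact the count of 7 ranged from 4 (without WT-WT replicate 2) to 7 with 1 library left out. After loss of both genes the count of 6 was 3 in clones E3 and C1. The cause of these changes was not tested, beyond the smaller number of libraries.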
